A study of Mus musculus with 4 samples.

Results

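Potassium channel genes were examined in the adult brain of mice that had received ethanol as pups. The members were all probe sets whose platform annotation named a single gene with a symbol starting with Kcn, apart from Kcnq1ot1, Kcnj13 and Kcne2, which were left out by name. There were 93 such probe sets for 90 genes, out of 35556 probe sets on the arrays, of which 21789 named a single gene, 19938 genes in all. The rule used no expression value. The mice were C57BL/6J males of the trimester 3 injection model, in which binge exposure falls in the third trimester equivalent of human brain development. On postnatal days 4 and 7, pups of the ethanol group were injected under the skin with ethanol at 2.5 g/kg and again 2 hours later, and littermates of the control group were given saline alone. The labels place weaning at postnatal day 25 and tissue collection at postnatal day 60, and the methods give other days for both. Whole-brain RNA was hybridized to 4 Mouse Gene 1.0 ST arrays, 2 per group, and the RNA on an array came from 3 males of separate litters. The arrays are called ethanol 2, ethanol 4, control 1 and control 3 after their titles. The treatment entry of the labels names the other group for ethanol 4 and control 1, and the groups here follow title and source name, which agree on all 4 arrays. As whole brain was used, fewer cells of a type and less RNA per cell cannot be told apart in any value below.

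Potassium channels let potassium leave or enter a cell and so set its resting voltage, end its action potentials and space its firing. Pore-forming subunits assemble around a selective pore and fall into families by what opens them, which is voltage for Kcna, Kcnb, Kcnc, Kcnd, Kcnh and Kcnq, calcium or sodium for Kcnma, Kcnn and Kcnt, and G proteins, ATP or none of these for the inward rectifiers of the Kcnj family. The tandem-pore Kcnk channels carry the leak current at rest, and auxiliary subunits such as Kcnab, Kcnip, Kcnmb and Kcne bind the pore-forming ones and alter their gating or traffic. Ethanol itself is known to act on some of these channels, among them the GIRK channels and the large-conductance BK channel.

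The deposited values were log2 signals, and the arrays were not level. The median over all probe sets was 6.33 on ethanol 2 and 6.38 on ethanol 4, against 6.61 on control 1 and 6.51 on control 3. The median difference (ethanol minus control) over all probe sets was -0.15. Each result is therefore given as deposited and again after another round of quantile normalization over the 4 arrays, which gives each the same distribution and brought that median to -0.0042. The limits used below are those of the study, and a probe set past them had groups that differed by 1.2-fold or more, a log2 of 0.26, at an unadjusted p under 0.05 in limma's moderated test (two-sided). The pools hold different mice, and 2 arrays per group limit the precision of every value. Mean signals of 5 neuron markers were 12.57 and 12.60 in ethanol brains and 12.69 and 12.60 in control brains, and those of 5 astrocyte markers lay between 10.24 and 10.30 on all arrays. None of these, nor of the interneuron, microglia, striatum and hypothalamus markers, was past the limits. As deposited, 1 of 4 oligodendrocyte (Cnp), 1 of 5 vessel (Pecam1), 1 of 4 choroid plexus (Kl) and 1 of 4 pituitary markers (Pomc) were lower and 1 of 4 cerebellar markers (Gabra6) was higher, and their part in the Kcn values was not tested. The pituitary transcripts Gh, Prl and Cga had log2 signals of 6.53, 5.05 and 5.75 on ethanol 2, and between 9.10 and 12.26 on the other 3 arrays, so that ethanol 2 stands apart.

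As deposited, 11 of the 93 Kcn probe sets were lower in ethanol brains and past the limits, none was higher and 82 were neither. They were 11.8% of the members, against 17.9% lower among all probe sets and 2.23% higher. Among probe sets naming a single gene, 16% were lower and 0.546% higher. The median difference of the members was -0.13, close to that of all probe sets, and 76 of the 93 lay below 0, where 80.2% of all probe sets did. Both ethanol arrays lay below both control arrays for 55 members (52.7% of all probe sets) and above both for 6 (7.25% of all probe sets). After quantile normalization, 3 members were lower and past the limits, 4 were higher and 86 were neither, where 5.87% of all probe sets were lower and 5.71% were higher. These were 3.23% and 4.3% of the members, and 3.43% and 3.65% of probe sets naming a single gene. Their median difference was then -0.01, and differences ran from -0.37 to 0.41. In that form the ethanol arrays lay below both controls for 20 members and above both for 26, against 24.9% and 24% of all probe sets. The shares of members past the limits lay near or under those of all probe sets in both forms. In neither form did a member pass an adjusted p of 0.05 (limma, Benjamini-Hochberg adjustment over all probe sets), which 0.00281% of all probe sets passed as deposited and 0.00562% after normalization. The smallest among members was 0.156 as deposited and 0.249 after normalization, while 12 members passed an unadjusted p of 0.05 as deposited (22.2% of all probe sets) and 11 did after normalization (13.6%).

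**Figure D1:**
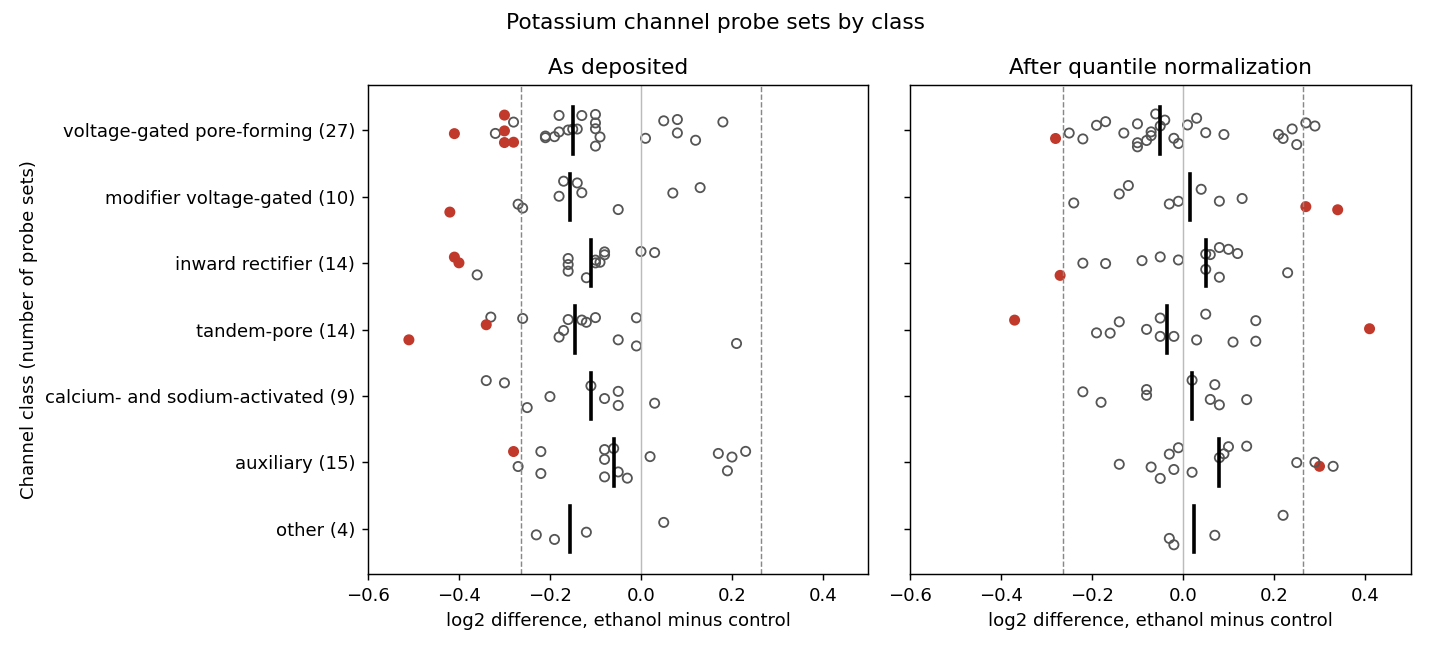
Log2 difference (ethanol minus control) of the 93 Kcn probe sets by channel class, as deposited on the left and after quantile normalization on the right, with filled points past the limits, black bars at class medians and dashed lines at 1.2-fold. The points lie mostly below 0 as deposited and on both sides of 0 after normalization, and the single filled point lowest in both panels is Kcnk10 of the tandem-pore class.

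The classes lay close together. They follow gene symbols, and the calcium- and sodium-activated class takes in Kcnu1, which is outside the families named above. As deposited, the median difference was -0.15 for the 27 voltage-gated pore-forming probe sets, -0.15 for the 10 modifier subunits that are silent alone, -0.11 for the 14 inward rectifiers, -0.14 for the 14 tandem-pore channels, -0.11 for the 9 calcium- and sodium-activated channels and -0.06 for the 15 auxiliary subunits. The remaining 4 probe sets, for Kcnrg and the opposite-strand transcripts Kcnd3os, Kcnmb4os1 and Kcnmb4os2, had -0.15. After quantile normalization the voltage-gated class was at -0.05 and the auxiliary class at 0.08, with the other classes between them. By class, the number past the limits and lower as deposited was 5 voltage-gated, 1 modifier, 2 inward rectifier, 2 tandem-pore, 0 calcium- or sodium-activated and 1 auxiliary. The voltage-gated share was 18.5%, against 17.9% of all probe sets, and the other classes ran from 0% to 14.3%. After normalization 1 voltage-gated, 1 inward rectifier and 1 tandem-pore probe set were lower, 3.7%, 7.14% and 7.14% of their classes, against 5.87% of all probe sets. None of the 9 calcium- and sodium-activated probe sets passed an unadjusted p of 0.05 as deposited, where 22.2% of all probe sets did. These medians are descriptions, as members share arrays and are not replicates.

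Kcnk10, Kcnj9 and Kcnh2 were past the limits and lower in both forms of the data. Across all probe sets, 5.86% were lower in both forms. Kcnk10 encodes a TREK-type leak channel that responds to membrane stretch and lipids. Its log2 signals were 7.86 and 7.87 on the ethanol arrays, against 8.40 and 8.36 on the control arrays. The gap between the groups was many times that within either, and it was the largest difference of the 93 members. It came to -0.51 (standard error 0.08, adjusted p = 0.156), which is 1.43-fold lower, and to -0.37 after quantile normalization (standard error 0.08, adjusted p = 0.249). Kcnk10 was past the limits under every alternative with the arrays grouped by title apart from the 1.5-fold limit, with the difference between -0.53 and -0.49 when 1 array was left out as deposited. Its adjusted p over all alternatives ran from 0.156 to 1, the last from the grouping by treatment entry.

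Kcnj9 encodes a subunit of the GIRK channels, which are opened by the G proteins of inhibitory receptors. It had 7.89 and 7.86 on the ethanol arrays, against 8.26 and 8.31 on the control arrays. The groups were apart and each pair of pools was tight. The difference was -0.41 (standard error 0.08, adjusted p = 0.171), or -0.27 after quantile normalization (standard error 0.09, adjusted p = 0.338), where it lay just past the 1.2-fold limit. With arrays centred on their medians it was at -0.20 and not past the limits. As deposited it stayed past the limits with any array left out. After normalization it was at -0.29 without ethanol 2, -0.24 without ethanol 4 and -0.21 without control 3, and past the limits in none of these, and at -0.33 without control 1, where it was. Kcnh2 encodes the ERG channel, whose voltage-gated current also repolarizes the heart. Its signals were 8.13 and 8.21 on the ethanol arrays and 8.67 and 8.49 on the control arrays. Control 1 was the highest of the 4, and the groups did not overlap. The difference was -0.41 (standard error 0.10, adjusted p = 0.174), and -0.28 after quantile normalization (standard error 0.09, adjusted p = 0.333). It kept its sign but was not past the limits by the methods' ANOVA, with arrays centred on their medians (-0.20), at -0.37 without ethanol 2 and at -0.33 without control 1. After normalization it was past them without control 3 (-0.33) but not without ethanol 2 (-0.24), ethanol 4 (-0.31) or control 1 (-0.23).

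**Figure D2:**
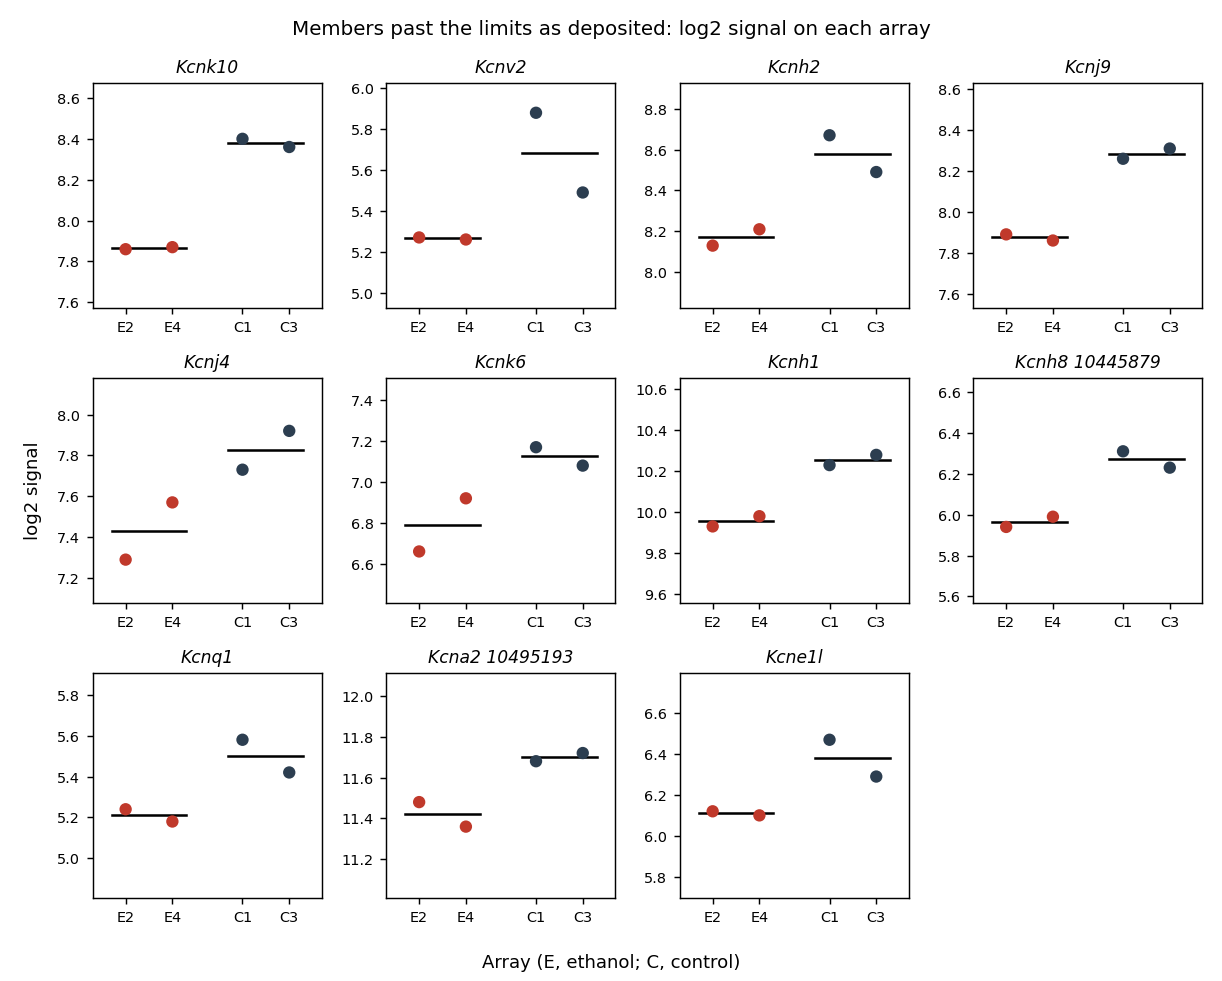
Log2 signal of the 11 Kcn probe sets past the limits and lower as deposited, with 1 point per array (E2 and E4 are ethanol arrays, C1 and C3 control arrays), black bars at group means and the same axis span in each panel. Both ethanol points lie below both control points in all 11 panels, which were chosen for a lower value on these same arrays. The same held for 52.7% of all probe sets as deposited. For Kcnk10 the ethanol arrays are at 7.86 and 7.87 and the control arrays at 8.40 and 8.36.

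Of the 7 members past the limits after quantile normalization, the sequence before the start site is shown where the RefSeq window (assembly GRCm38.p6) lies wholly outside the annotated gene, which held for 3. They are printed to show the letters upstream of a pair of lower genes and a higher one. Each run is the 250 bases before the start, read 5′ to 3′ on the strand of the gene, with CpG dinucleotides in capitals. Where a gene has several listed starts, as Kcnk10 has with 2, the outermost was used. Kcnk10 lies at chr12:98578214-98578463, minus strand, Kcnj9 at chr1:172329323-172329572, minus strand, and Kcnk15 at chr2:163853500-163853749, plus strand.
Kcnk10: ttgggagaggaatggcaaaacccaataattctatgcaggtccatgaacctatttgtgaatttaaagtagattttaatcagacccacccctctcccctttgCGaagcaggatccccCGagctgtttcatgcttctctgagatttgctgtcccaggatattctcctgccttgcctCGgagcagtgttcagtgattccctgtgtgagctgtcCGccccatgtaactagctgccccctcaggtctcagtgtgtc
Kcnj9: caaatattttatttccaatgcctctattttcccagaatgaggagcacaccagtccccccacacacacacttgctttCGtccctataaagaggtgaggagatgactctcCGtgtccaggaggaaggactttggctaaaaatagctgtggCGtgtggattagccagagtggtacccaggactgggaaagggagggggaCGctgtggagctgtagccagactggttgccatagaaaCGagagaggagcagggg
Kcnk15: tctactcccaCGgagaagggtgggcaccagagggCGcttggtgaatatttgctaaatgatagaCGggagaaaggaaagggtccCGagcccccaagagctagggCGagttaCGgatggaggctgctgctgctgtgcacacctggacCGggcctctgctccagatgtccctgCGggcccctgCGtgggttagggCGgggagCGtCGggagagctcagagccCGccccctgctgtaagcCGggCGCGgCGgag
The lower members Kcnk10 and Kcnj9 held 4 and 5 CpGs in this window, and Kcnk15, which was higher after normalization, held 17. Windows that overlap the annotated gene are not printed, and there the lower Kcnh2 held 14, the higher Kcnip1 6 and the higher Kcns3 8. No window was matched for Kcns2. CpG content thus did not separate lower from higher members. Of the 27025 genes with a window, 61.9% held at least as many CpGs as Kcnk10, 55.5% as many as Kcnj9 and 23.5% as many as Kcnk15. Windows were matched for 68 of the 90 Kcn genes, whose median was 8 CpGs, against 6 for all genes. Of these 68 windows, 37 ended at the annotated gene start. The GC box GGGCGG, searched on both strands, was in 48.5% of the Kcn windows and 33% of all windows, the E-box CACGTG in 5.88% and 6.04%, and the cAMP response core TGACG, searched on both strands, in 19.1% and 17.8%. Kcnk10, Kcnk15, Kcnh2 and Kcns3 each held a GC box, and Kcnj9 and Kcnip1 did not. A match is a description of the letters only.

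The other 8 members past the limits as deposited stayed below 0 after quantile normalization but were no longer past the limits. Kcnv2, a silent modifier subunit, had 5.27 and 5.26 on the ethanol arrays, against 5.88 and 5.49 on the control arrays. The ethanol pools were level and the controls were far apart, and the difference of -0.42 (standard error 0.15, adjusted p = 0.219) became -0.22 without control 1. Kcnj4, a strong inward rectifier of neurons, had 7.29 and 7.57 in ethanol brains and 7.73 and 7.92 in control brains, a difference of -0.40 (standard error 0.14, adjusted p = 0.211). Without ethanol 2 it was at -0.26 and not past the limits. Kcnk6, a weakly rectifying tandem-pore channel, had 6.66 and 6.92 in ethanol brains and 7.17 and 7.08 in control brains, a difference of -0.34 that was at -0.21 without ethanol 2. Both Kcnj4 and Kcnk6 were thus lowest on ethanol 2, the array low in pituitary transcripts, whose part in these values was not tested. Kcnh1, the EAG channel and a relative of Kcnh2, had 9.93 and 9.98 on the ethanol arrays, against 10.23 and 10.28 on the control arrays. The pools of each group lay close together. The difference was -0.30 (standard error 0.09, adjusted p = 0.180), against -0.22 after normalization. Kcnh8 of the same family, on 1 of its probe sets, Kcnq1, a partner of Kcne subunits in heart and ear, a Kcna2 probe set and the Kcne-like subunit gene Kcne1l were lower by 1.21-fold to 1.23-fold as deposited, and after normalization they ran from -0.25 for Kcna2 to -0.07 for Kcne1l. Without ethanol 2, 9 of the 11 were no longer past the limits, all but Kcnk10 and Kcnj9, and Kcnk3 was lower and past them. Without ethanol 4, 6 were lost and Kcnh2, Kcnj4, Kcnj9, Kcnk6 and Kcnk10 kept. Without control 1, 7 were lost and Kcnh1, Kcnj4, Kcnj9 and Kcnk10 kept. Without control 3, 4 were lost, namely Kcna2, Kcnh1, Kcnj4 and Kcnk6. All 11 stayed below 0 in each of these fits. Kcng1, a silent subunit, lay just short of the 1.2-fold limit, with 8.10 and 8.06 in ethanol brains and 8.37 and 8.31 in control brains, a difference of -0.26.

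Among 8 Kcnh probe sets, 3 were lower and past the limits as deposited (17.9% of all probe sets) and 1 was after quantile normalization (5.87%). The family median was -0.24, and -0.10 after normalization, or -0.15 and -0.05 without control 1. Kcnh3, a relative found mainly in forebrain, had 8.55 and 8.64 on the ethanol arrays, against 8.53 and 8.42 on the control arrays, a difference of 0.12 as deposited and 0.25 after normalization, past the limits in neither.

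Members with higher signals in ethanol brains were found among the Kcnip and Kcns genes, but not there alone. Kcne4, with a mean log2 signal under 5, was at 0.20 as deposited and 0.33 after quantile normalization. Kcna5 and Kcnd1 were at 0.27 and 0.24 after normalization, and none of these was past the limits in either form. The Kcnip genes encode KChIPs, calcium-binding proteins that attach to the Kv4 pores of the A-type current, and the Kcns genes encode silent subunits that modify the Kv2 pores. No member of either family was past the limits as deposited. After quantile normalization Kcnip1, Kcns2 and Kcns3 were past the limits and higher, together with the tandem-pore gene Kcnk15. The 4 Kcnip genes had a median difference of 0.18 as deposited and 0.27 after normalization, against -0.15 and -0.0042 for all probe sets. Without control 1 that median was 0.08, with 2 genes above 0 and 2 below, and 0.13 after normalization, and by the treatment entry it was -0.03. The 3 Kcns genes had medians of 0.07 and 0.27, the first of which was -0.02 without control 3.

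Kcnip1 had log2 signals of 9.66 and 9.67 on the ethanol arrays after quantile normalization, against 9.41 and 9.32 on the control arrays. The groups were apart, also as deposited, where the signals were 9.60 and 9.62 in ethanol brains and 9.49 and 9.36 in control brains. The difference was 0.19 as deposited (standard error 0.09, adjusted p = 0.295) and 0.30 after normalization (standard error 0.08, adjusted p = 0.306). Kcnip4 had 11.82 and 11.72 on the ethanol arrays, against 11.48 and 11.60 on the control arrays, as deposited. With 0.23 (standard error 0.10, adjusted p = 0.249) it had the highest difference of all 93 members as deposited. It was at 0.25 after normalization, and short of the 1.2-fold limit in both forms. It was past the limits after normalization without control 3 (0.33) and with arrays centred on their medians (0.44). Kcnip2 had 9.23 and 9.40 on the ethanol arrays and 8.96 and 9.33 on the control arrays. Its groups overlapped as deposited, since control 3 lay between the ethanol pools, and without control 1 the difference was at -0.02. After normalization it was at 0.29, and at 0.51 and past the limits without control 3. Kcnip3, which also acts as a DNA-binding repressor, had 11.79 and 12.00 in ethanol brains and 11.99 and 11.90 in control brains, with both controls between the ethanol pools. The pore-forming partners Kcnd1, Kcnd2 and Kcnd3 had differences of 0.05, -0.09 and -0.18, none past the limits, and 0.24, -0.08 and -0.06 after normalization. Of the cerebellar markers, Gabra6 was higher and past the limits, with 10.66 and 10.29 in ethanol brains and 9.92 and 10.01 in control brains. The other 3 of 4 were not past the limits. Pcp2, Calb1 and Cbln1 were at -0.01, -0.02 and -0.11 as deposited, and at 0.11, -0.02 and -0.04 after normalization. The part of tissue makeup in the Kcnip values was not tested.

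Kcns3 had 7.10 on each ethanol array after quantile normalization, against 6.86 and 6.79 on the control arrays. The difference of 0.27 (standard error 0.08, adjusted p = 0.316) compared with 0.07 as deposited, where the groups overlapped. Kcns2 had 6.62 and 6.78 in ethanol brains and 6.28 and 6.45 in control brains after normalization, a difference of 0.34 (standard error 0.11, adjusted p = 0.336), and 0.13 as deposited. Kcns1 was at -0.13 as deposited and 0.08 after normalization. Kcnk15, a tandem-pore gene of the TASK group, had 6.27 and 6.46 on the ethanol arrays, against 5.87 and 6.03 on the control arrays after normalization. It had the highest difference of the members in that form, at 0.41 (standard error 0.11, adjusted p = 0.299), and 0.21 as deposited. Its groups were apart in both forms, in the opposite direction to Kcnk10. With 1 array left out after normalization, Kcnk15 and Kcns2 were past the limits without ethanol 2 and without control 3 but not without ethanol 4 (0.33 and 0.26) or control 1 (0.33 and 0.26). Kcnip1 was past them without control 1 alone (0.35), at 0.30 without either ethanol array and 0.25 without control 3, and Kcns3 was past them in none of the 4, at 0.24 to 0.31.

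**Figure D3:**
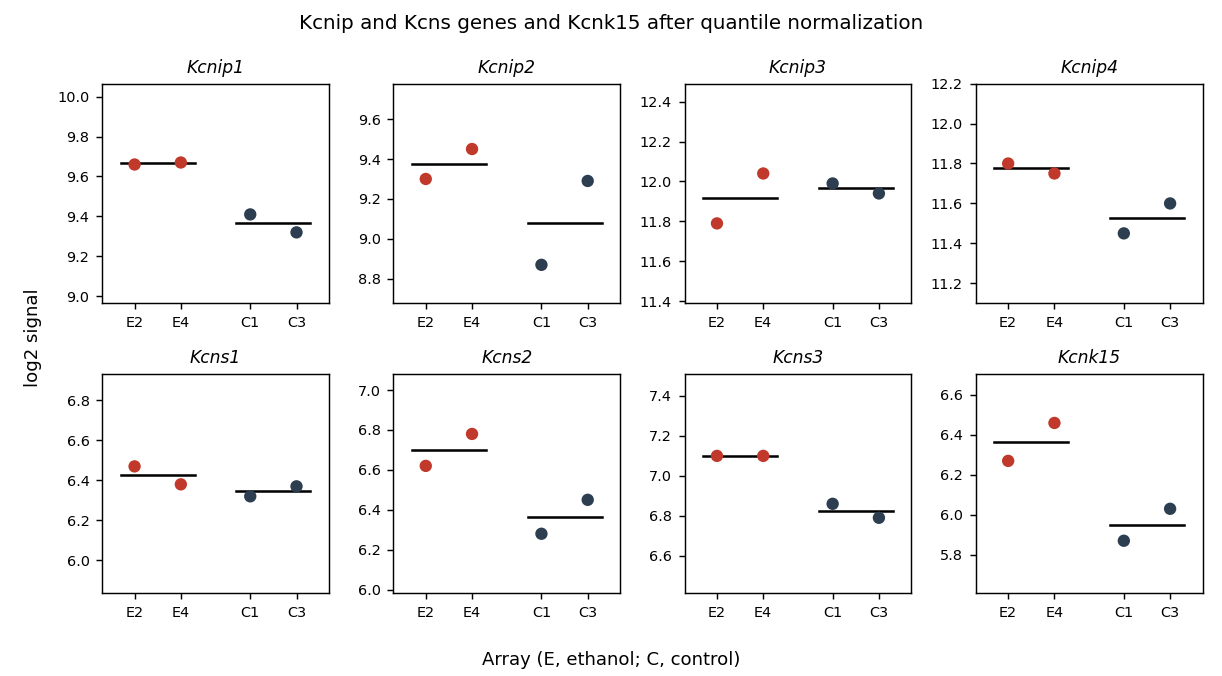
Log2 signal after quantile normalization of the 4 Kcnip genes, the 3 Kcns genes and Kcnk15, with 1 point per array (E2 and E4 are ethanol arrays, C1 and C3 control arrays), black bars at group means and the same axis span in each panel. Ethanol points lie above both control points for Kcnip1, Kcnip2, Kcnip4, the 3 Kcns genes and Kcnk15, and on either side of them for Kcnip3. The panels were chosen after the values were seen, and 24% of all probe sets were apart and higher in this form. Kcnip2 is barely apart (9.30 on ethanol 2, 9.29 on control 3), as is Kcns1 (6.38 on ethanol 4, 6.37 on control 3).

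The GIRK channels, through which inhibitory receptors quiet neurons, had 1 of 4 members past the limits in each form, Kcnj9, which was lower. Of all probe sets, 17.9% were lower as deposited and 5.87% after quantile normalization. Kcnj6, which encodes the subunit that can form GIRK channels by itself, had 6.99 and 6.89 on the ethanol arrays and 7.52 and 7.09 on the control arrays. The groups were apart only narrowly, as control 1 stood above the rest, and the difference of -0.36 (standard error 0.17, adjusted p = 0.271) was at -0.15 without control 1 and at -0.58, past the limits, without control 3. It was also past the limits with ethanol 2 and control 1 paired in a replicate block. Kcnj3, its most common partner in brain, had 10.61 and 10.94 in ethanol brains, against 10.92 and 10.83 in control brains. Both controls lay between the ethanol pools, and the difference of -0.10 was 0.07 without ethanol 2. Kcnj5, better known from heart, was at -0.08. The median of the 4 was -0.23 as deposited and -0.11 after quantile normalization. Without control 1 it was -0.10 and -0.01. After normalization Kcnj9 and Kcnj6 were at -0.27 and -0.17.

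For BK, the large channel opened jointly by calcium and voltage, none of 6 probe sets was past the limits in either form. Of all probe sets, 17.9% were lower and 2.23% higher as deposited, and 5.87% and 5.71% after normalization. The pore gene Kcnma1 has 2 probe sets, of which 10418053 had 10.83 and 10.81 on the ethanol arrays and 10.86 and 10.73 on the control arrays. All 4 arrays lay within a narrow band, at a difference of 0.03 (standard error 0.09, adjusted p = 0.878) as deposited and 0.08 after normalization. The other, 10582545, was at -0.05, but its log2 signals lay between 4.68 and 4.88, with a mean under 5. The neuronal beta subunit gene Kcnmb4 had 8.20 and 8.40 in ethanol brains, against 8.71 and 8.43 in control brains. Its difference of -0.27 (standard error 0.14, adjusted p = 0.304) was at -0.13 without control 1 and at -0.41, past the limits, without control 3. Without ethanol 2 it was at -0.17, and it was past the limits with ethanol 2 and control 3 paired in a replicate block. Kcnmb1, Kcnmb2 and Kcnmb3 were at -0.08, -0.22 and -0.22 as deposited and between -0.03 and 0.10 after normalization. Kcnmb2 was at -0.12 without ethanol 2 and -0.33 without ethanol 4, and Kcnmb3 was at -0.07 without control 1 and at -0.37, past the limits, without control 3. Of the SK channels, which calcium opens after a spike, Kcnn3 had 8.75 and 8.94 in ethanol brains and 9.31 and 9.07 in control brains. Its difference of -0.34 (standard error 0.13, adjusted p = 0.228) fell short of the unadjusted p of 0.05, and it was at -0.22 after normalization. It was past the limits with ethanol 2 and control 3 paired in a replicate block, with an intensity trend, and without control 3 (-0.47), and at -0.22 without control 1. Kcnn1, Kcnn2 and Kcnn4 were at -0.05, -0.11 and -0.25.

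**Figure D4:**
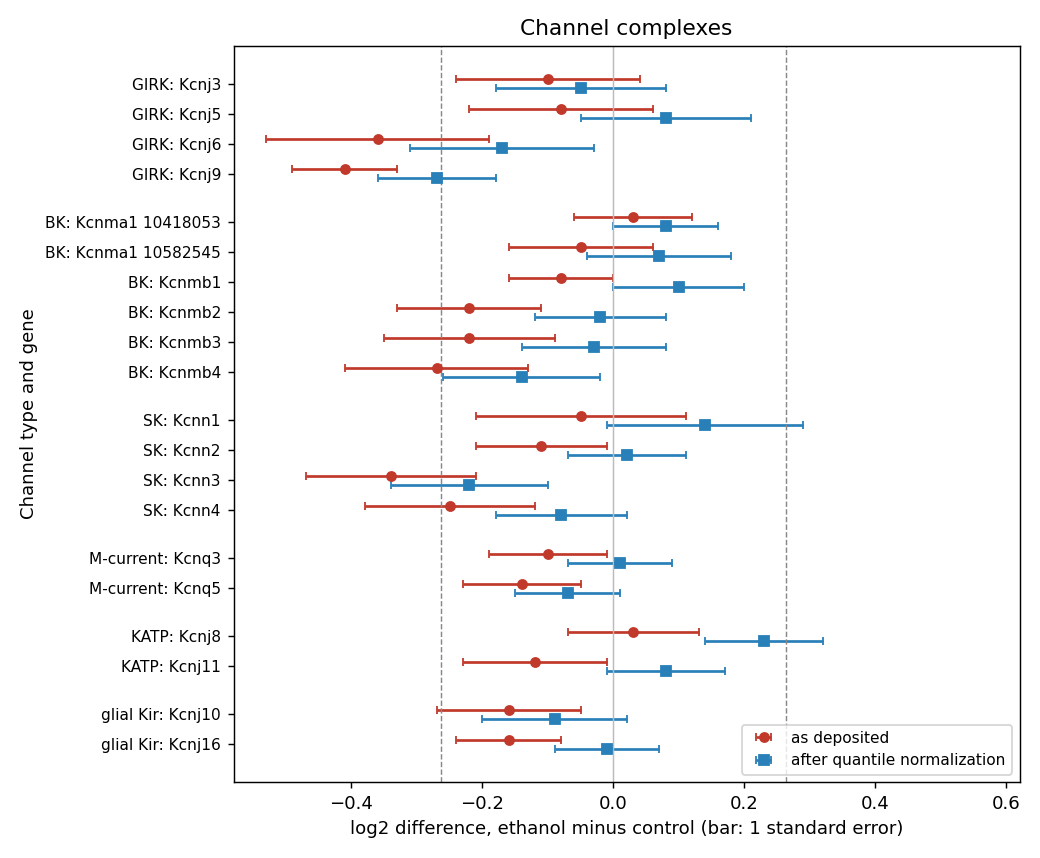
Log2 difference (ethanol minus control) of the members of 6 channel types, as circles for the deposited values and squares after quantile normalization, with bars of 1 standard error from limma and dashed lines at 1.2-fold. Kcnj9 lies past the lower line in both forms, and the Kcnma1, Kcnq, KATP and glial members lie within the lines in both.

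The M-current genes Kcnq3 and Kcnq5, whose channels restrain repeated firing, were at -0.10 and -0.14 as deposited and 0.01 and -0.07 after quantile normalization. Of the KATP channels, which couple metabolism to voltage, Kcnj11 of neurons had 6.98 and 7.14 in ethanol brains, against 7.26 and 7.10 in control brains. Kcnj8, found mainly in pericytes and smooth muscle, was at 0.03 as deposited and 0.23 after normalization. The glial inward rectifiers Kcnj10 and Kcnj16, which clear potassium from around neurons, were both at -0.16 as deposited and at -0.09 and -0.01 after normalization. Kcnj10 had 10.28 and 10.49 on the ethanol arrays and 10.61 and 10.48 on the control arrays, with overlapping groups, and without ethanol 2 its difference was -0.06, or 0.00 after normalization. None of these 6 genes was past the limits in either form, and none of 5 astrocyte markers was. Of all probe sets, 17.9% were lower and 2.23% higher as deposited, and 5.87% and 5.71% after normalization.

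Probe sets for the same gene did not always give the same value. Kcna2, a Kv1 channel gene of axons, had -0.28 on probe set 10495193, past the limits as deposited, and -0.13 on 10495197. Kcnh8 had -0.30 on 10445879 and -0.10 on 10451784. After quantile normalization the values were -0.25 and -0.01 for Kcna2 and -0.10 and 0.09 for Kcnh8. Among the Kv1 genes and their beta subunits, the remaining members were not past the limits. Of the Kv3 genes, which serve fast-spiking cells, Kcnc1 had 9.62 and 9.53 in ethanol brains and 9.70 and 9.10 in control brains. Its control pools differed by 0.60, more than those of any other member, with the ethanol pools between them. The difference was 0.18, and 0.29 after normalization, and its sign turned with the control array left out. Without control 3 it was -0.13, and 0.01 after normalization, and without control 1 it was 0.48 and past the limits, as it was after normalization (0.57).

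Pools of one group differed as well. The ethanol pools differed by a median size of 0.09 over the 93 members and the control pools by 0.12, as deposited, where all probe sets had 0.12 in each group. The widest gaps between the ethanol pools were those of Kcna5, with 5.62 on ethanol 2 and 6.08 on ethanol 4, of Kcnk3, with 8.80 and 8.44 on the same arrays, and of Kcne4, with 4.87 and 5.20. Between the control pools they were those of Kcnc1, of Kcnj6 and of Kcnv2. Of the members, 5 had a mean log2 signal under 5. All 11 lower members had a mean of 5 or more, but some had low signals. Group means (ethanol, control) were 5.21 and 5.50 for Kcnq1 and 5.26 and 5.68 for Kcnv2. They were 5.97 and 6.27 for Kcnh8 10445879 and 6.11 and 6.38 for Kcne1l. These lay below the array medians, which ran from 6.33 to 6.61.

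With the arrays grouped by the treatment entry of the labels, no Kcn member was past the limits in either form. Of all probe sets, 0.686% were lower and 0.917% higher as deposited, and 1.36% and 1.41% after quantile normalization. Of the 11 members lower by title, 4 were below 0 by the entry as deposited. Kcnk10 was at 0.01, Kcnj9 at -0.01 and Kcnh2 at 0.04. Of the members higher by title after normalization, Kcnk15 and Kcns2 were at -0.17 and -0.16 by the entry, and Kcnip1 and Kcns3 were both at 0.04. The entry sets ethanol 2 and control 1 against ethanol 4 and control 3, so each of its groups mixes an array of either title. A difference by the entry is thus made up only of gaps between arrays of the same title. Both groupings use the same 4 arrays, and their values are set side by side only.

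**Figure D5:**
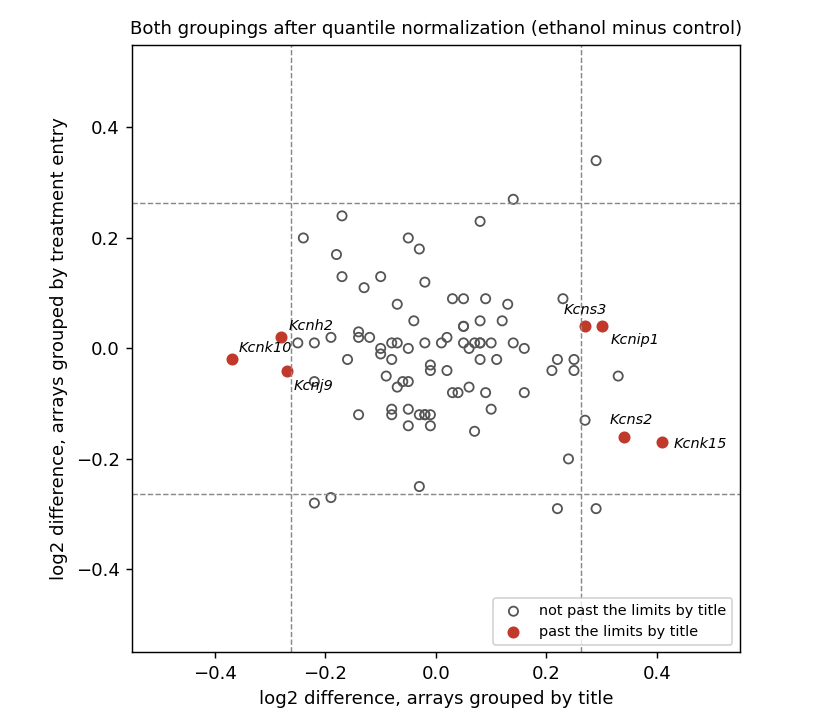
Log2 difference (ethanol minus control) of each of the 93 Kcn probe sets after quantile normalization, with the arrays grouped by title on the horizontal axis and by treatment entry on the vertical axis, filled points past the limits by title and dashed lines at 1.2-fold. The 7 filled points lie outside the dashed lines on the horizontal axis and inside them on the vertical axis.

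Among 18 genes outside the Kcn symbols whose products bind, anchor or regulate potassium channels, 1 was lower and past the limits in both forms, where 5.86% of all probe sets were, and none was higher. It was Cntn2, the axonal adhesion protein that holds Kv1 channels beside the node. Cntn2 had 9.07 and 9.14 on the ethanol arrays, against 9.57 and 9.47 on the control arrays. The groups were well apart, at -0.42 (standard error 0.09, adjusted p = 0.171) and -0.31 after quantile normalization. The oligodendrocyte marker Cnp was also lower, at -0.28 and -0.29 after normalization. Mbp, Mog and Mobp, the other 3 measured, were at -0.14, -0.14 and -0.19 as deposited, and at -0.10, -0.10 and -0.16 after normalization. These 3 were thus also below 0 in both forms, but not past the limits. The part of myelin or oligodendrocyte content in the Cntn2 value was not tested. The median of the 18 was -0.13 as deposited and -0.03 after normalization. The sulfonylurea receptors Abcc8 and Abcc9, which complete the KATP channel, were both at -0.00 as deposited, and at 0.13 and 0.20 after normalization.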

How the data were processed

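Whole-brain RNA of 12 male mice, pooled by 3, was measured on 4 Mouse Gene 1.0 ST arrays. Per the methods, the authors used Partek Genomics Suite (6.6 in the submitters' notes, another version in the methods) for RMA with quantile normalization, corrected for GC content, and deposited gene-level log2 values, whose medians nonetheless differ between arrays. Symbols come from the platform annotation, and all 93 members matched a RefSeq mouse gene by Entrez ID, with 0 symbols changed. The build behind the probe annotation is not given in the sources used here, so coordinates are those of RefSeq windows (GRCm38.p6).

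All 35556 probe sets were fitted in limma 3.58.1 (R 4.3.3, 2 residual and 2.57 prior degrees of freedom) as ethanol minus control, with no filter and no pairing, and the Benjamini-Hochberg adjustment ran over the whole table. The scripts were checked on simulated data with known changes. An exact permutation test of 2 against 2 arrays cannot give a p under 0.333, so none was used. Members and lists were chosen with earlier results of these data known, and no p over a list is given.

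Named genes are members past the limits in the same direction in both forms, the 8 largest differences each way as deposited, the smallest p of each class, the 3 largest gaps between the pools of each group, all GIRK, BK, KATP, glial inward rectifier and M-current genes, genes with several probe sets, and partner genes past the limits. Other Kcn genes (Kcnh1, Kcnq1, Kcns1, Kcns3, Kcnip3, Kcnrg, Kcnu1, the Kcnd and remaining Kcnn genes and the opposite-strand transcripts), Abcc8, Abcc9 and the markers were named after their values were seen. The alternatives were quantile normalization, centring on array medians, a floor of 5 on the mean log2, a prior trend with intensity, the methods' ANOVA, grouping by treatment entry, both replicate blocks, leaving out each array, the arrays with matching labels alone (ethanol 2 and control 3, no test) and a 1.5-fold limit. The treatment entry and the left-out arrays were also combined with quantile normalization, a choice made after seeing the data.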

Additional observations from a re-analysis of the deposited data

How the results depend on the processing

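The count of 11 members past the limits and lower was the same with a minimum mean log2 of 5, with an intensity trend and with either replicate block (ethanol 2 paired with control 1, or with control 3, as the labels match littermates without saying which pools match), though 9, 8 and 7 of the 11 were past the limits in the last 3 fits. It was 3 after quantile normalization, 1 with arrays centred on their medians, 5 by the methods' ANOVA, and 0 at a 1.5-fold limit and with the grouping by treatment entry, in both forms. The count of higher members, 0 as deposited, was 4 after quantile normalization and 8 with centred arrays. The median difference, -0.13 as deposited, was -0.01 after quantile normalization, 0.08 with centred arrays and 0.01 with the grouping by treatment entry (-0.00 after normalization). Relative to all probe sets it stayed between -0.01 and 0.02 in every fit. The intensity trend, the ANOVA and the replicate blocks leave each difference as it was, and centring shifts all probe sets alike. Those fits could therefore not move the relative value. In ethanol 2 against control 3 alone, the arrays whose labels all match, the median was -0.11. With 1 array left out, the lone array of a group is assumed to vary like the other group, and the count of lower members ran from 3 (without ethanol 2) to 15 (without control 3), with 6 without ethanol 4 and 4 without control 1. The count of higher ones ran from 0 to 1 and the median from -0.15 to -0.10. With an array left out after quantile normalization, an alternative chosen after seeing the data like the treatment entry after normalization, lower members numbered 1 to 3, higher ones 0 to 5, and the median ran from -0.01 to 0.02. When grouped by treatment entry, 7 of the 11 lower members lay above 0 as deposited, Kcnq1 (0.11 in both forms), Kcnh2 (0.04, and 0.02 after quantile normalization), Kcnv2 (0.20 in both forms), Kcna2 10495193 (0.04 and 0.01), Kcne1l (0.10 and 0.08), Kcnh8 10445879 (0.01, and -0.01 after normalization) and Kcnk10 (0.01, and -0.02 after normalization). A difference by treatment entry is, by construction, the mean of 2 gaps, ethanol 2 minus ethanol 4 and control 1 minus control 3. It holds no part of the title difference, so members with close pools within each title lie near 0 by the entry, on either side. The cause of the other differences between fits was not tested. Of 39 named probe sets, those past the limits in neither fit that changed sign numbered 6 after quantile normalization, 13 with centred arrays and 18 with the grouping by treatment entry. With 2 pools per group, values short of the limits do not show that a gene was unaffected.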
